A study of Homo sapiens with 21 samples.

Results

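The genes described here are the protein-coding human potassium channel genes whose symbols begin with KCN. They were taken from the gene table by name alone: a gene was a member when its symbol was KCN followed by letters and, optionally, a number, and its annotated type was protein-coding. The rule gave 96 members of 57500 genes. Another 22 genes with KCN in their names, mostly antisense and intronic transcripts, were not members. By family, 40 members encode voltage-gated pore subunits, 16 inward rectifiers, 15 tandem-pore (K2P) leak channels, 8 pore subunits gated by calcium or sodium, and 17 auxiliary subunits and regulators.

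The RNA came from tumours of HT1376, an established human bladder carcinoma line, grown with Matrigel under the skin of the right flank of female CB17 SCID mice aged 6 to 8 weeks. Tumour-bearing mice received vehicle or 1 of 6 compounds, which the series groups as inhibitors of EZH2, the enzyme of Polycomb repressive complex 2 that methylates histone H3 at lysine 27. Each compound was given by mouth once a day at 75 mg/kg, and tumours were taken on day 15, 1 hour after the dose. This gave 7 groups of 3 RNA-seq libraries, 21 in all.

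The groups were named for their compounds, CPI-0209, Valemetostat and MAK683, then tazemetostat, PF-06821497 and also CPI-1205, with vehicle as the control. MAK683 is known to bind the EED subunit of the complex, while the other compounds act on the enzyme itself. Dosing began 11 to 15 days after inoculation, when tumours averaged 139 to 160 cubic millimetres. Every group carried the same line and host, and only 1 tumour line was used. SCID mice lack mature T and B lymphocytes but keep macrophages, endothelium, nerve and muscle, and the count tables list human genes. How reads of mouse origin were handled is not given in the sources used here. The labels do not say that the 3 libraries of a group came from 3 animals, so each p-value measures the spread between libraries, which may be in part technical. Arms held 3 to 21 animals.

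Potassium channels let potassium leave the cell along its gradient and so set the membrane potential. Voltage-gated channels open on depolarisation and end action potentials in nerve and heart; inward rectifiers and K2P channels stay open at rest and carry the leak that holds the resting potential. Channels gated by intracellular calcium couple calcium signals to potassium efflux. In epithelia, including the urothelium of the bladder, potassium channels also support ion transport, volume regulation and the driving force for calcium entry. Auxiliary subunits change the gating or delivery of the pore subunits and do not conduct on their own.

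The libraries held 9725690 to 25771778 counts each and detected 31834 to 35733 genes. Between 76 and 88 members had a count in a library, and all members together took 0.038% to 0.051% of its counts. Levels are given in CPM, the count of a gene scaled to a common library total with TMM factors. EZH2 itself had 84.6, 79.5 and 99.1 CPM with CPI-0209, against 72.7, 71.4 and 73.6 CPM with vehicle. Of 14 markers of urothelial carcinoma cells, all had counts in the series, and UPK3A alone was at 0 in the vehicle libraries. Their summed level was 9400 to 11100 CPM with CPI-0209 and 13200 to 13900 CPM with vehicle, with 1 of 13 tested markers higher and 5 lower. Fewer cells of a type and less RNA per cell cannot be told apart in these bulk samples.

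After a filter on low counts, 60 of the 96 members were tested among 21958 genes, and 36 were not. Two-sided tests came from edgeR's quasi-likelihood method, fitted once over every library, with Benjamini-Hochberg adjustment over all tested genes, and a gene is called higher or lower at an adjusted p under 0.05. All compounds were set against the same 3 vehicle libraries, so those 6 comparisons are not independent of each other.

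In vehicle tumours the most abundant members per length of exon were KCNK1 and KCNN4, at 21.9 ± 2.43 and 19.3 ± 1.2 CPM per kilobase (SD, n = 3). KCNK1 encodes a K2P leak channel and KCNN4 the intermediate-conductance calcium-activated channel of lymphocytes, red cells and epithelia. KCNMB4, an auxiliary subunit of the large-conductance calcium-activated channel, followed at 7.71 ± 0.128, and KCNK6, a relative of KCNK1, at 7.28 ± 0.925 CPM per kilobase. KCNG1, a silent modifier of other voltage-gated channels, came after them at 4.37 ± 0.346 and KCNJ15, an inward rectifier, at 4.26 ± 0.354. Lower levels were those of KCNK3 at 3.02 ± 0.355, KCNJ2 at 2.25 ± 0.403 and KCNK7 at 2.08 ± 0.327 CPM per kilobase. The gaps between KCNMB4 and KCNK6, between KCNG1 and KCNJ15 and between KCNJ2 and KCNK7 were smaller than the larger SD of each pair.

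**Figure D1:**
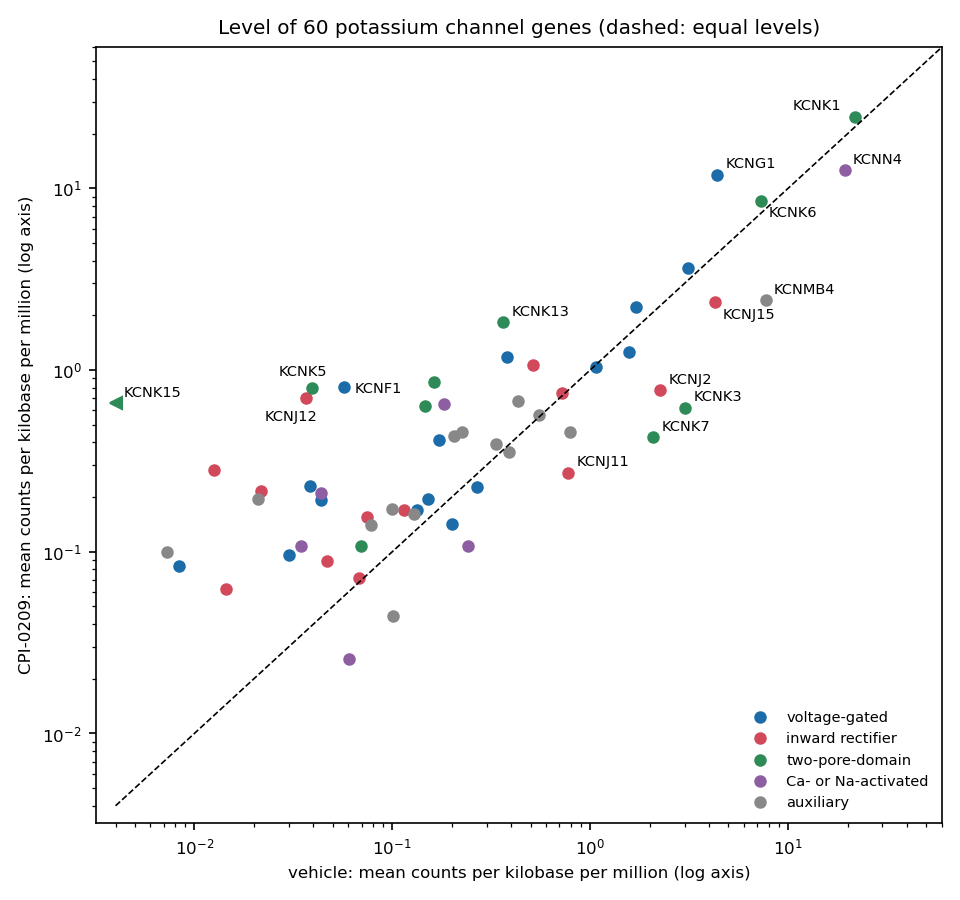
Each point is 1 of the 60 tested members, with its mean level over 3 CPI-0209 libraries on the vertical axis and over 3 vehicle libraries on the horizontal axis, both in CPM per kilobase, on log axes, and coloured by family. KCNK1 stays near the line of equal levels (24.8 with CPI-0209, 21.9 with vehicle), KCNG1 lies above it (11.9 with CPI-0209, 4.37 with vehicle) and KCNK3 below it (0.621 with CPI-0209, 3.02 with vehicle); the triangle at the left edge is KCNK15, which had 0 counts with vehicle.

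With CPI-0209, KCNG1 reached 11.9 ± 1.46 CPM per kilobase, while KCNK1 stood at 24.8 ± 2.17, KCNN4 at 12.6 ± 0.84 and KCNK6 at 8.57 ± 0.623. KCNMB4 was at 2.42 ± 0.545 and KCNK3 at 0.621 ± 0.195 CPM per kilobase in those tumours.

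CPI-0209 against vehicle called 26 of the 60 tested members higher and 10 lower, or 43.3% and 16.7%, against 22.3% of all tested genes higher and 18.8% lower. The median log2 fold change was 0.69 over the tested members and -0.02 over all tested genes. Leaving out 1 library at a time gave 21 to 27 members higher and 8 to 10 lower. Scaling by upper-quartile factors moved the median of all tested genes to 0.12 and gave 28 members higher and 10 lower.

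Calls differed with level, among the members and over all tested genes. A member could pass the filter through the compound groups alone. Of the 60, 36 would have passed on the vehicle libraries by themselves, where the filter asked for 0.46 CPM. Among those 36, CPI-0209 gave 10 higher and 10 lower, 27.8% each, against 14.9% higher and 23.9% lower of 16981 such genes. The median log2 fold change was 0.19 over those 36 members and -0.12 over such genes. Those 36 were picked on their vehicle levels, so lower calls near the filter are not free of selection either. Among the other 24 members CPI-0209 gave 16 higher and 0 lower, 66.7% higher against 47.5% of 4977 such genes. These members passed the filter through groups in which they were high, so this count is not support for a rise. Those called higher and described below are KCNK5, KCNK15, KCNJ4, KCNJ6, KCNJ8, KCNJ10, KCNJ12, KCNC2, KCND3, KCNF1, KCNH5, KCNN3, KCNE3 and KCNMB1. In each comparison the adjusted p of each of these members, and any gap between its groups, follows the same selection. By mean level over all libraries, 14 of 26 members under 1 CPM were higher and 2 lower, 11 of 25 between 1 and 10 CPM were higher and 4 lower, and 1 of 9 at 10 CPM or more was higher and 4 lower. Those are 53.8% and 7.69%, 44% and 16%, and 11.1% and 44.4%. Over all tested genes the shares in the same ranges of level were 34% higher and 4.08% lower, 30.1% and 13.8%, and 11.4% and 29.6%.

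**Figure D2:**
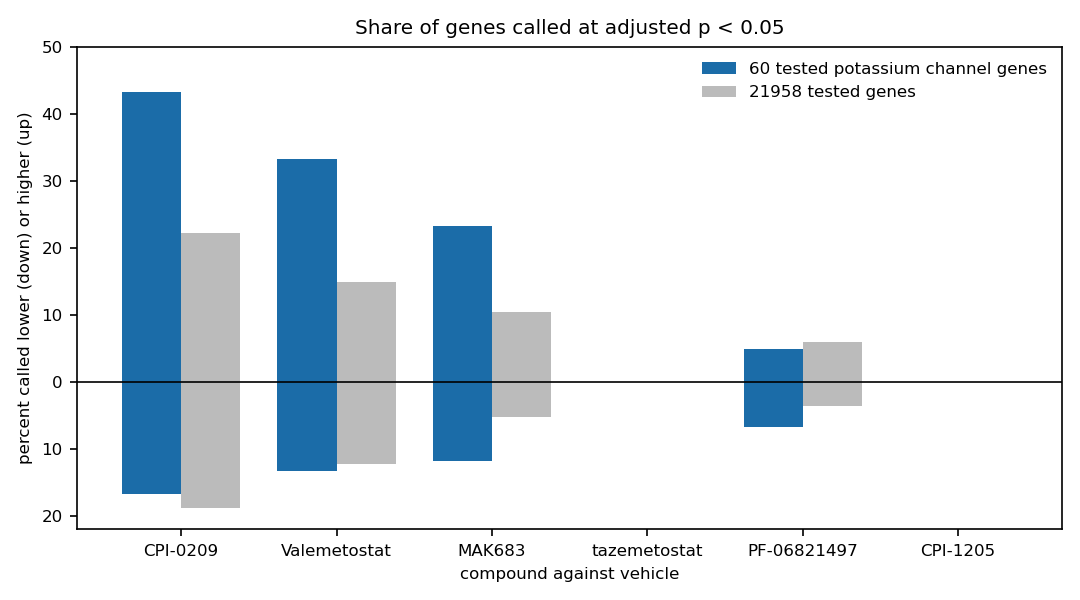
Bars give the percentage of tested genes called higher (upward) and lower (downward) against vehicle for each compound at an edgeR adjusted p under 0.05, for the 60 tested potassium channel genes in blue and all 21958 tested genes in grey. With CPI-0209 the members reached 43.3% higher and 16.7% lower, while tazemetostat and CPI-1205 gave 0 calls of either kind.

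**Figure D3:**
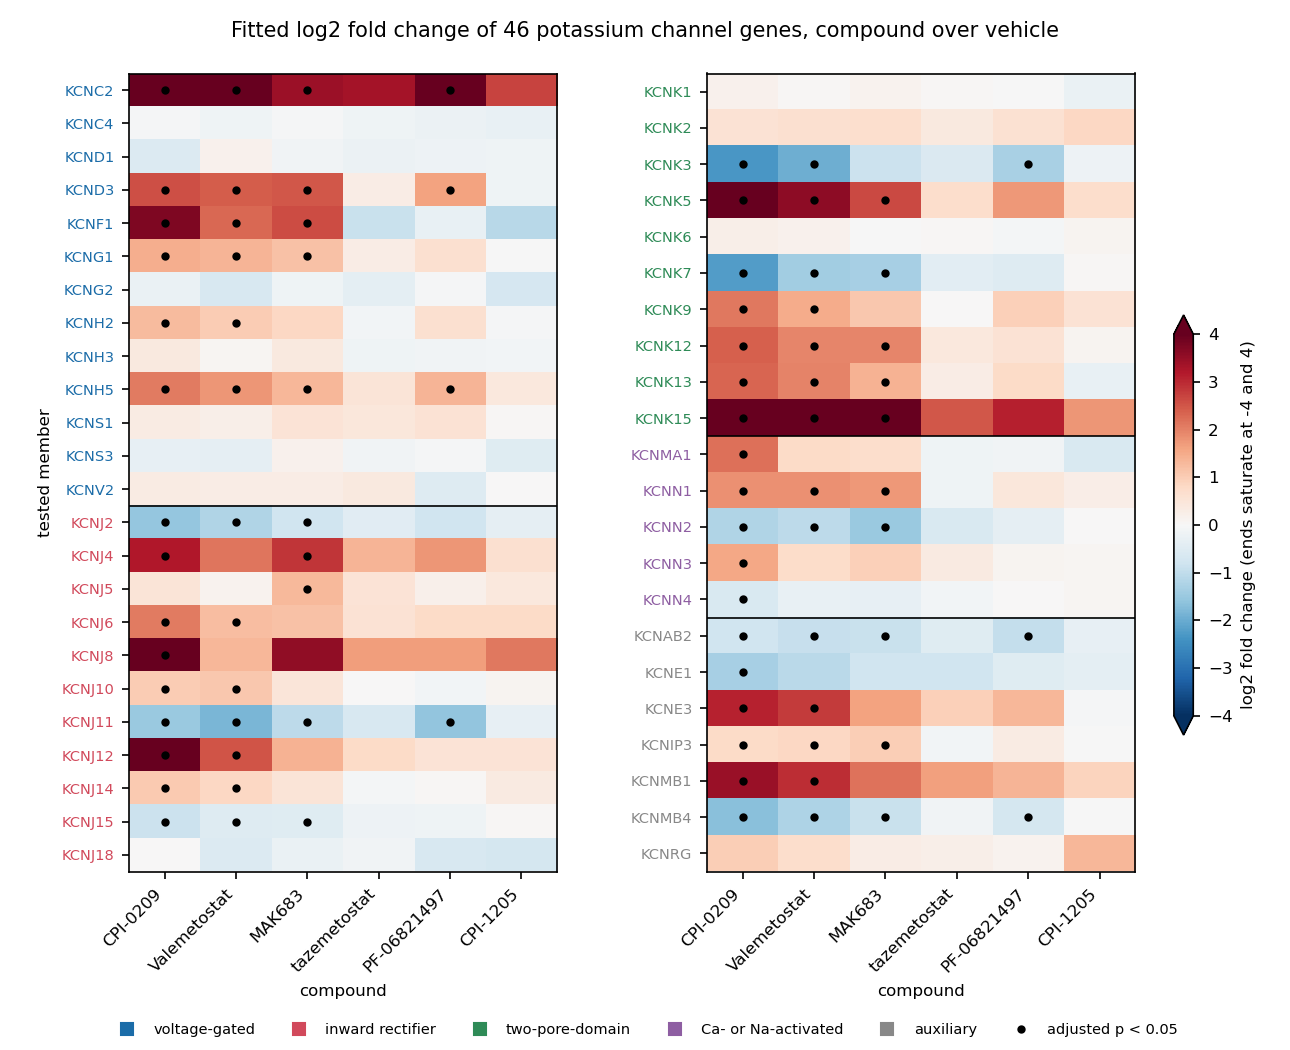
Colour gives the fitted log2 fold change, compound over vehicle, of 46 of the 60 tested members in rows, those named in the text, with the 6 compounds in columns; a dot marks an adjusted p under 0.05 and the label colour marks the family. CPI-0209, with 33 dots, shows the most, and the tazemetostat and CPI-1205 columns hold none.

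Each of the 5 families had calls with CPI-0209, set here beside 22.3% of all tested genes higher and 18.8% lower. Voltage-gated pore subunits had 9 of 17 tested members higher and 0 lower, inward rectifiers 6 higher and 3 lower of 13, K2P channels 5 higher and 2 lower of 10, calcium- or sodium-activated pore subunits 3 higher and 2 lower of 6, and auxiliary subunits 3 higher and 3 lower of 14. The auxiliary share was 21.4% in each direction, near that of all genes. The differences between families were not tested.

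Markers of other cell types also moved with CPI-0209. Summed neuron markers were 32.1 to 36.9 CPM with CPI-0209 and 11.7 to 15.2 CPM with vehicle, with 8 of 9 tested markers higher and the neurofilament gene NEFL at 0 in all vehicle libraries. Endothelial markers were 90.9 to 120 CPM with CPI-0209 and 27.3 to 29.9 CPM with vehicle (6 of 11 higher, 2 lower), and macrophage and lymphocyte markers 105 to 134 CPM with CPI-0209 and 41.9 to 57.3 CPM with vehicle (7 of 9 higher, 0 lower). Schwann cell markers were 158 to 171 CPM with CPI-0209 and 235 to 284 CPM with vehicle (2 of 6 higher, 2 lower), and their defining gene SOX10 was at 0 in every library. Smooth muscle and pericyte markers were 225 to 235 CPM with CPI-0209 and 357 to 436 CPM with vehicle (4 of 10 higher, 2 lower). Each list had counts for all its other markers in CPI-0209 libraries, and in vehicle libraries for all but the lymphocyte gene MS4A1. The part of these markers in the changes of the members was not tested.

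Among K2P channels, which carry background leak current, CPI-0209 raised KCNK5, KCNK15, KCNK12, KCNK13 and KCNK9 and lowered KCNK3 and KCNK7. KCNK5 (chr6:39188973-39229450, hg38) encodes a leak channel that opens in alkaline medium. It had 3.12, 3.45 and 2.39 CPM in the CPI-0209 libraries, against 0.181, 0.168 and 0.0932 CPM in the vehicle libraries. The lowest CPI-0209 library lay far above the highest vehicle library, and the log2 fold change was 4.29 ± 0.48 SE, edgeR adjusted p = 4.36e-07. KCNK5 passed the filter through compound libraries in which it was high, so its adjusted p and this gap follow that selection.

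KCNK15 (chr20:44745780-44752313) belongs to the acid-sensitive branch of the family and has not been shown to conduct on its own. Its level was 0.669, 2.82 and 1.62 CPM with CPI-0209 and 0 in all 3 vehicle libraries. With 78 counts over the CPI-0209 group and a floor of 3 counts over the vehicle group, it was at least 38.3-fold higher (edgeR adjusted p = 2e-05). KCNK15 passed the filter through compound libraries in which it was high, so its adjusted p, here and below, follows that selection and is not independent support. Of the KCNK15 exon bases, 19.5% are shared with RIMS4 on the opposite strand and 2.2% with KCNK15-AS1. The strand setting of the counting is not given in the sources used here, so reads of such partners cannot be told apart.

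KCNK12 (chr2:47516581-47570939) and KCNK13 (chr14:90061765-90185857) form the halothane-inhibited pair of the family. KCNK12 stood at 3.46, 6.78 and 7.07 CPM with CPI-0209, against 0.77, 1.13 and 1.35 CPM with vehicle, a log2 fold change of 2.39 ± 0.43 SE, edgeR adjusted p = 0.000143. KCNK13 had 3.9, 5.86 and 4.11 CPM with CPI-0209, against 0.996, 1.01 and 0.745 CPM with vehicle, a log2 fold change of 2.33 ± 0.38 SE, edgeR adjusted p = 4.42e-05. Neither gene's groups overlapped. KCNK9 (chr8:139600838-139703056), an acid-sensitive leak channel of brain, had 1.56, 3.85 and 3.06 CPM with CPI-0209 and 0.498, 0.797 and 0.652 CPM with vehicle, again without overlap (log2 fold change 2.10 ± 0.40 SE, edgeR adjusted p = 0.000235).

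KCNK3 (chr2:26692690-26733420), the close relative of KCNK9 and also closed by acid, went the other way. Its CPI-0209 libraries had 3.68, 2.76 and 5.16 CPM and its vehicle libraries 18.2, 21.3 and 17 CPM, with a log2 fold change of -2.31 ± 0.38 SE, edgeR adjusted p = 5.92e-05. The highest CPI-0209 library stayed below the lowest vehicle library. KCNK7 (chr11:65592855-65595996), for which no current has been shown, fell as well, with 0.948, 0.575 and 0.478 CPM with CPI-0209 and 2.72, 3.73 and 3.31 CPM with vehicle (log2 fold change -2.23 ± 0.33 SE, edgeR adjusted p = 1.35e-05).

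The abundant K2P members were not called. KCNK1 had 91.2, 81.6 and 97.2 CPM with CPI-0209 and 75.4, 73.2 and 89.4 CPM with vehicle, with overlapping groups and a log2 fold change of 0.18 with a 95% interval of -0.05 to 0.41 (edgeR adjusted p = 0.202). KCNK6 gave 0.23 with a 95% interval of -0.15 to 0.62 (edgeR adjusted p = 0.331). KCNK2, a leak channel opened by stretch, was scarce and overlapped between groups, at 0.279, 0.402 and 0.573 CPM with CPI-0209 and 0.453, 0.126 and 0.233 CPM with vehicle.

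Inward rectifiers split into 6 that rose and 3 that fell. KCNJ12 (chr17:21376197-21419872), a strong rectifier of heart and muscle, had 1.95, 4.83 and 5.06 CPM with CPI-0209, against 0.226, 0.252 and 0.14 CPM with vehicle, a log2 fold change of 4.20 ± 0.48 SE, edgeR adjusted p = 6.25e-07. The groups did not overlap, and the smallest CPI-0209 value was library 1. KCNJ12 also passed the filter through the compound groups alone. KCNJ12 has a near-identical copy, KCNJ18, to which the counting could have given some of its reads. KCNJ18 had 0.557, 1.9 and 2.48 CPM with CPI-0209 and 1.36, 1.47 and 1.91 CPM with vehicle, overlapping, with a log2 fold change of 0.01 with a 95% interval of -0.82 to 0.84 (edgeR adjusted p = 0.991), so the level of either gene is uncertain.

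KCNJ6, a G-protein-gated rectifier, rose to 1.51, 0.92 and 1.24 CPM with CPI-0209, against 0.272, 0.252 and 0.326 CPM with vehicle (log2 fold change 2.09 ± 0.41 SE, edgeR adjusted p = 0.000304). KCNJ14 reached 4.4, 3.97 and 5.45 CPM with CPI-0209, against 2.35, 2.31 and 2 CPM with vehicle (log2 fold change 1.04 ± 0.30 SE, edgeR adjusted p = 0.00832); 16.5% of its exon bases are shared with an antisense transcript. For KCNJ4, which had 3 counts in vehicle, 21 counts with CPI-0209 gave a ratio of 10.3 with a 95% counting interval of 3.08 to 53.9 (edgeR adjusted p = 0.00157). These counting intervals cover counting error only.

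KCNJ8, a pore of the ATP-sensitive channel of vessels, had 28 counts with CPI-0209 and 2 with vehicle, a ratio of 20.6 with an interval of 5.19 to 178 (edgeR adjusted p = 0.00856). Its CPI-0209 libraries were uneven, at 0.111, 0.747 and 1.24 CPM, against 0, 0 and 0.0932 CPM with vehicle. KCNJ10, the glial rectifier, was called higher (log2 fold change 1.02 ± 0.41 SE, edgeR adjusted p = 0.0477), with 0.836, 0.805 and 1.15 CPM with CPI-0209 and 0.362, 0.504 and 0.466 CPM with vehicle. The KCNJ10 call ended in each of the 6 fits that left out 1 library: the edgeR adjusted p was 0.0614, 0.0684 and 0.136 without CPI-0209 libraries 1, 2 and 3, and 0.136, 0.0727 and 0.0807 without vehicle libraries 1, 2 and 3.

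The 3 inward rectifiers that fell were KCNJ2, KCNJ11 and KCNJ15. KCNJ2 (chr17:70168673-70180048) encodes the classic strong rectifier that holds the resting potential in muscle. Its CPI-0209 libraries had 5.07, 2.36 and 5.54 CPM and its vehicle libraries 10.3, 12.6 and 14.8 CPM, with no overlap and a log2 fold change of -1.56 ± 0.28 SE, edgeR adjusted p = 0.000124. KCNJ11 (chr11:17385859-17389331), the pore of the ATP-sensitive channel of pancreatic beta cells, had 1.06, 0.805 and 0.764 CPM with CPI-0209, against 2.04, 2.6 and 2.79 CPM with vehicle (log2 fold change -1.48 ± 0.30 SE, edgeR adjusted p = 0.000423). KCNJ15, which had the highest level per kilobase of the family in vehicle tumours, fell less in proportion, at 24.2, 20.7 and 24.2 CPM with CPI-0209 and 43.4, 37.4 and 43.4 CPM with vehicle (log2 fold change -0.85 ± 0.12 SE, edgeR adjusted p = 6.09e-06). All 3 kept their groups apart.

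**Figure D4:**
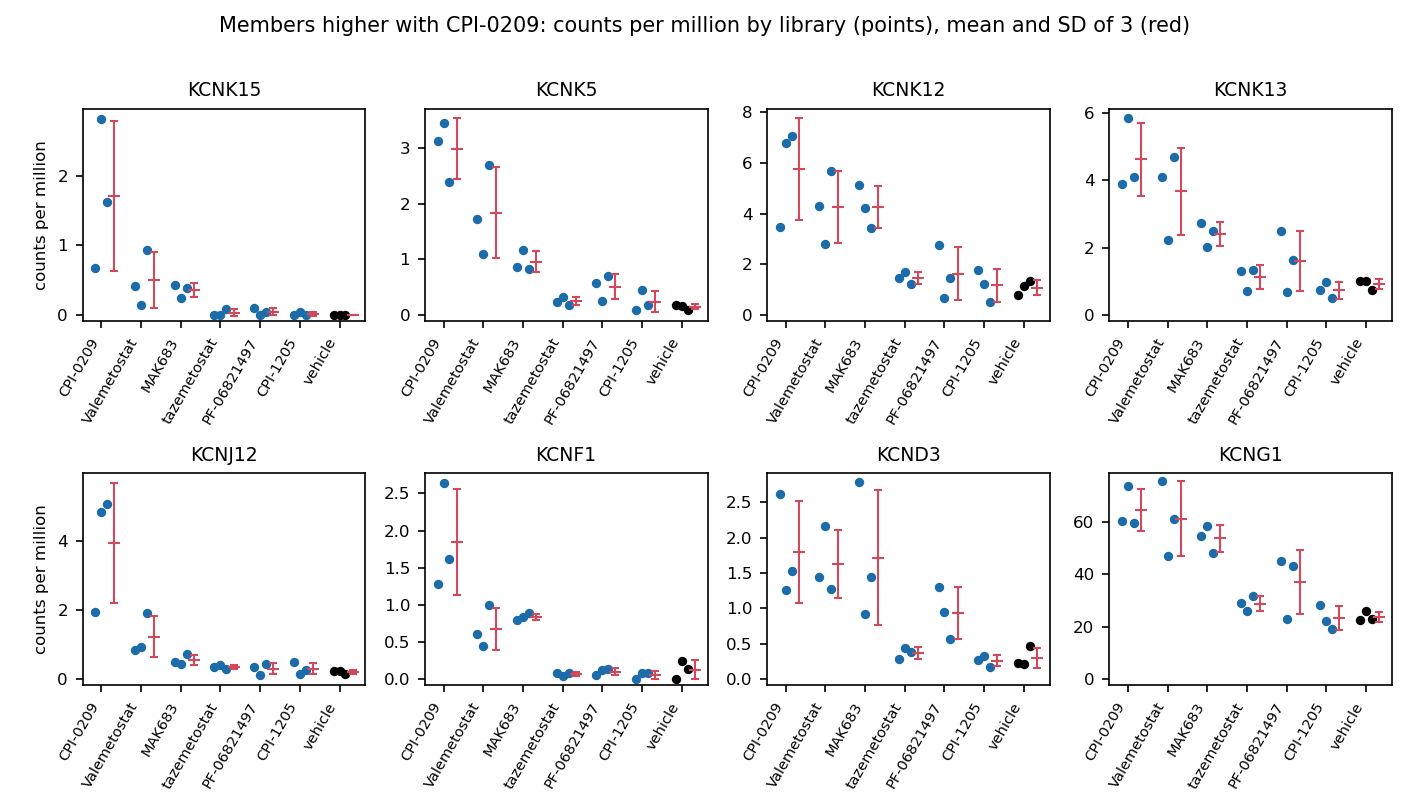
Points are levels in CPM in single libraries for 8 members that were higher with CPI-0209, by group from CPI-0209 on the left to vehicle on the right; the red bar is the mean and SD of 3 libraries. KCNG1 lies at 60.4, 73.8 and 59.8 CPM with CPI-0209 and 22.5, 25.9 and 23 CPM with vehicle, and at 29.1, 26 and 31.6 CPM with tazemetostat.

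Voltage-gated subunits rose where they were called. KCNF1 (chr2:10911937-10914225), a silent subunit that modifies other voltage-gated channels, had 1.28, 2.64 and 1.62 CPM with CPI-0209, against 0, 0.252 and 0.14 CPM with vehicle (log2 fold change 3.75 ± 0.55 SE, edgeR adjusted p = 1.41e-05). Vehicle library 2 held the highest vehicle value, and without it the log2 fold change was 4.62. It was 3.18 without vehicle library 1 and 3.37 without CPI-0209 library 2. KCNF1 passed the filter through the compound groups alone. KCNG1 (chr20:51003656-51023129), another silent modifier, was the one member above 10 CPM that rose: it had 60.4, 73.8 and 59.8 CPM with CPI-0209 and 22.5, 25.9 and 23 CPM with vehicle, with no overlap (log2 fold change 1.44 ± 0.21 SE, edgeR adjusted p = 1.12e-05). An antisense transcript shares 8.0% of its exon bases.

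KCND3 (chr1:111770662-111989155), a fast-inactivating A-type channel of heart and brain, had 2.62, 1.26 and 1.53 CPM with CPI-0209 and 0.226, 0.21 and 0.466 CPM with vehicle, well apart (log2 fold change 2.59 ± 0.46 SE, edgeR adjusted p = 0.000132). It too passed the filter through the compound groups alone.

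Of the 3 tested members of the ether-a-go-go family, KCNH5 and KCNH2 were higher and KCNH3 was not called. KCNH5 had 2.45, 1.21 and 3.44 CPM with CPI-0209 and 0.453, 0.797 and 0.373 CPM with vehicle (log2 fold change 2.07 ± 0.38 SE, edgeR adjusted p = 0.000153). KCNH2, the channel of cardiac repolarisation, had 2.56, 2.41 and 2.29 CPM with CPI-0209, against 1.22, 0.881 and 0.932 CPM with vehicle (log2 fold change 1.26 ± 0.29 SE, edgeR adjusted p = 0.00148). Both kept their groups apart. KCNC2, a fast channel of interneurons, had 15 counts with CPI-0209 and 1 with vehicle, a ratio of 22.1 with an interval of 3.4 to 929 (edgeR adjusted p = 0.00256); 36.1% of its exon bases lie opposite an antisense transcript.

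The 8 voltage-gated members without a call included KCNC4, KCND1, KCNG2, KCNH3, KCNS1, KCNS3 and KCNV2. KCNC4, at 22.7, 24.8 and 30.9 CPM with CPI-0209 and 25.1, 25 and 30.1 CPM with vehicle, overlapped throughout, with a log2 fold change of -0.04 with a 95% interval of -0.31 to 0.24. KCNH3 gave 0.39 with a 95% interval of -0.07 to 0.85.

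Among calcium-activated channels, KCNN4 fell a little and its small-conductance relatives moved both ways. KCNN4 (chr19:43766533-43781257) had 44.2, 41.8 and 38.7 CPM with CPI-0209, against 66, 65.2 and 58.8 CPM with vehicle, and the groups did not overlap (log2 fold change -0.60 ± 0.17 SE, edgeR adjusted p = 0.00782). KCNN2 fell too, with 0.334, 0.345 and 0.573 CPM with CPI-0209 and 0.815, 0.965 and 1.02 CPM with vehicle (log2 fold change -1.21 ± 0.39 SE, edgeR adjusted p = 0.0158). Its call ended without vehicle library 3 and without CPI-0209 library 1 or 2, where the edgeR adjusted p was 0.0513, 0.0749 and 0.0637. KCNN1 rose, with 1.62, 3.62 and 2.48 CPM with CPI-0209 and 0.588, 0.671 and 0.932 CPM with vehicle (log2 fold change 1.81 ± 0.45 SE, edgeR adjusted p = 0.00267).

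KCNMA1 (chr10:76869601-77638595), the large-conductance calcium-activated channel of muscle and nerve, had 2.17, 2.01 and 8.22 CPM with CPI-0209, against 0.86, 0.839 and 0.885 CPM with vehicle (log2 fold change 2.20 ± 0.58 SE, edgeR adjusted p = 0.00421). CPI-0209 library 3 stood apart from the other two. Without it the log2 fold change was 1.27 (edgeR adjusted p = 0.0683), and the call was lost. The same library had the highest skeletal muscle marker level of the group: the summed level of 15 muscle markers was 571, 425 and 2140 CPM in the CPI-0209 libraries and 597 to 659 CPM with vehicle. Of the 14 tested muscle markers, 7 were higher and 1 lower with CPI-0209, and none of the 15 was at 0 in either group. The median muscle marker level was 4.912, 3.52 and 7.235 log2 CPM in the CPI-0209 libraries and 2.62, -1.38 and 3.523 log2 CPM in the vehicle libraries. With this median as a term in the fit, KCNMA1 gave 0.95 (edgeR adjusted p = 0.159). The medians of the CPI-0209 libraries lay mostly above those of vehicle, so the term cannot be fully told apart from the treatment. KCNN3, at 1.17, 0.46 and 2.77 CPM with CPI-0209 and 0.362, 0.629 and 0.419 CPM with vehicle, was also highest in that library, and its groups overlapped; without library 3 its log2 fold change was 0.78 (edgeR adjusted p = 0.262). Its call was also lost without vehicle library 1 or 3 (edgeR adjusted p = 0.0795 and 0.0646).

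Over all 36 calls of CPI-0209 against vehicle, 8 were lost with the muscle term and 6 without CPI-0209 library 3. The 8 were KCNE1, KCNIP3, KCNJ8, KCNJ10, KCNMA1, KCNMB1, KCNN3 and KCNN4, and the 6 included KCNIP3, KCNJ10, KCNMA1, KCNMB1 and KCNN3. The log2 fold change with the muscle term was -1.35 for KCNE1 and 1.05 for KCNJ10, as far from 0 as without it, with edgeR adjusted p of 0.0509 and 0.0833. For the other 6 it was nearer to 0, such as 2.87 for KCNJ8 and -0.43 for KCNN4. Of the 36 calls, 20 were tested and kept under all 15 alternatives, 6 were kept under each alternative that tested them, and 10 were lost under at least 1.

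Among auxiliary subunits 3 fell and 3 rose. KCNMB4 (chr12:70366276-70434292), the brain-type beta subunit of the large-conductance channel, had the smallest adjusted p of all members in this comparison. It had 14.8, 9.65 and 11 CPM with CPI-0209, against 38.3, 37.2 and 37.2 CPM with vehicle, a log2 fold change of -1.67 ± 0.16 SE, edgeR adjusted p = 6.28e-08. Its vehicle libraries lay close together, and no CPI-0209 library reached the lowest of them. KCNAB2, a beta subunit of KCNA channels, fell to 4.01, 4.94 and 4.11 CPM with CPI-0209, against 7.47, 8.85 and 6.38 CPM with vehicle (log2 fold change -0.79 ± 0.20 SE, edgeR adjusted p = 0.00325). KCNE1, the partner of KCNQ1 in heart, had 0.0557, 0.23 and 0.478 CPM with CPI-0209 and 0.634, 0.587 and 0.512 CPM with vehicle (log2 fold change -1.33 ± 0.47 SE, edgeR adjusted p = 0.0267), and its copy KCNE1B may share its reads. All 3 vehicle libraries of KCNE1 lay above 0.46 CPM, but only library 3 of CPI-0209 did. It thus passed the filter in part through the group in which it was high. The KCNE1 call was lost without vehicle library 1 or 2 (edgeR adjusted p = 0.0643 and 0.0549) and without CPI-0209 library 1 or 2 (0.199 and 0.0703), with no filter on low counts, with DESeq2 and with only the groups compared, and its log2 fold change was -0.76 without CPI-0209 library 1.

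KCNE3, a partner of KCNQ1 in gut and airway epithelia, was higher, with 0.669, 0.23 and 1.24 CPM with CPI-0209 and 0.0905, 0 and 0.14 CPM with vehicle (log2 fold change 3.06 ± 0.66 SE, edgeR adjusted p = 0.000853); 16.6% of its exon bases are shared with an antisense transcript. KCNIP3, a calcium sensor that binds KCND channels, had 1.34, 1.26 and 1.43 CPM with CPI-0209, against 0.815, 0.755 and 0.792 CPM with vehicle (log2 fold change 0.76 ± 0.26 SE, edgeR adjusted p = 0.021). Its edgeR adjusted p was 0.0544 without CPI-0209 library 3 and 0.0679 without vehicle library 2. KCNMB1, the smooth muscle beta subunit, had 23 counts with CPI-0209 and 3 with vehicle, a ratio of 11.3 with an interval of 3.41 to 58.7 (edgeR adjusted p = 0.00684). Of those counts, 13 were in CPI-0209 library 3, at 0.334, 0.23 and 1.24 CPM over the libraries, and without it the call was lost (edgeR adjusted p = 0.0653).

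**Figure D5:**
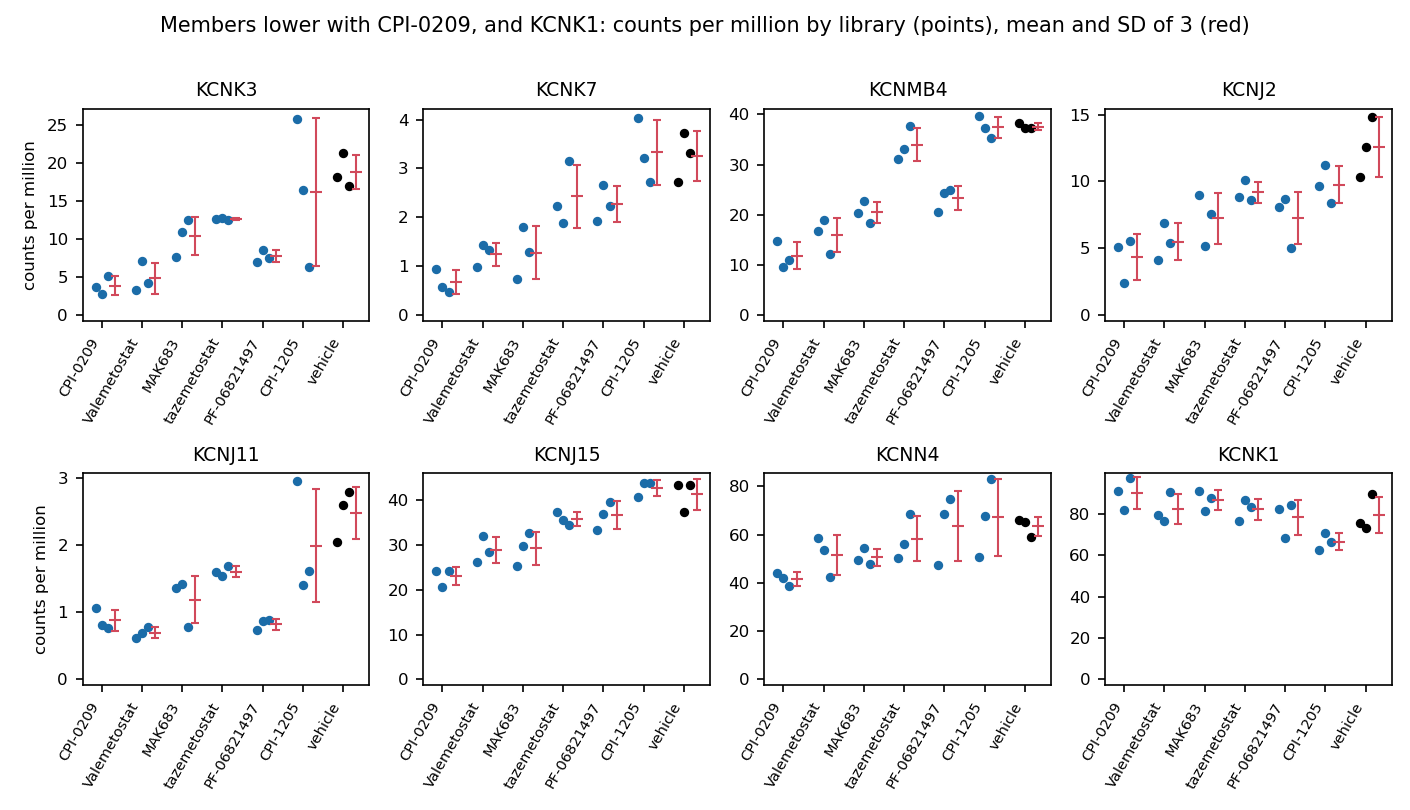
Points are levels in CPM in single libraries for 7 members that were lower with CPI-0209 and for KCNK1, which was not called, by group from CPI-0209 on the left to vehicle on the right; the red bar is the mean and SD of 3 libraries. KCNMB4 lies at 14.8, 9.65 and 11 CPM with CPI-0209 and 38.3, 37.2 and 37.2 CPM with vehicle, and KCNK1 overlaps between those groups.

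Valemetostat against vehicle gave 20 members higher and 8 lower, 33.3% and 13.3% of the 60, against 15% of all tested genes higher and 12.2% lower. The median log2 fold change was 0.55 over the members and -0.01 over all tested genes. Among the 36 members passing the filter on the vehicle libraries alone, 25% were higher and 22.2% lower, with a median of 0.11. Of all such genes, 10.8% were higher and 15.6% lower, with a median of -0.08. The other members passed the filter through the compound groups. KCNK5 had 1.73, 1.09 and 2.7 CPM with Valemetostat, against 0.181, 0.168 and 0.0932 CPM with vehicle (log2 fold change 3.57 ± 0.49 SE, edgeR adjusted p = 1.09e-05). KCNJ12 reached 0.84, 0.938 and 1.93 CPM with Valemetostat (log2 fold change 2.53 ± 0.51 SE, edgeR adjusted p = 0.000744). KCND3 stood at 1.45, 2.17 and 1.27 CPM with Valemetostat, a log2 fold change of 2.43 ± 0.46 SE, edgeR adjusted p = 0.000405. None of these 3 genes overlapped with vehicle. All 3 passed the filter through the compound groups alone.

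For the other leak channels, Valemetostat gave KCNK13 4.11, 2.22 and 4.69 CPM (log2 fold change 1.99 ± 0.38 SE, edgeR adjusted p = 0.000403), KCNK12 4.29, 2.81 and 5.68 CPM (1.97 ± 0.43 SE, edgeR adjusted p = 0.00156) and KCNK9 2.05, 1.33 and 2.15 CPM (1.49 ± 0.40 SE, edgeR adjusted p = 0.00764). KCNK15 had 29 counts over the 3 Valemetostat libraries and none with vehicle, at least 10.9-fold higher (edgeR adjusted p = 0.00201). KCNG1 was at 75.8, 47 and 61.1 CPM with Valemetostat (log2 fold change 1.36 ± 0.21 SE, edgeR adjusted p = 3.77e-05), with the lowest library still above all vehicle libraries. The log2 fold changes of KCNN1 and KCNH5 over vehicle were 1.83 and 1.77, with edgeR adjusted p of 0.00358 and 0.00112. KCNC2 had 35 counts with Valemetostat and 1 with vehicle, a ratio of 39.4 with an interval of 6.63 to 1600.

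Valemetostat lowered KCNK3 to 3.22, 7.11 and 4.19 CPM, against 18.2, 21.3 and 17 CPM with vehicle (log2 fold change -1.96 ± 0.36 SE, edgeR adjusted p = 0.00036). KCNJ11 was at 0.607, 0.691 and 0.772 CPM with Valemetostat (-1.84 ± 0.29 SE, edgeR adjusted p = 7.18e-05) and KCNK7 at 0.98, 1.43 and 1.32 CPM (-1.39 ± 0.29 SE, edgeR adjusted p = 0.0011). KCNMB4 stood at 16.7, 18.9 and 12.2 CPM (log2 fold change -1.24 ± 0.15 SE, edgeR adjusted p = 3.91e-06) and KCNJ2 at 4.15, 6.91 and 5.4 CPM (-1.19 ± 0.27 SE, edgeR adjusted p = 0.00186). No Valemetostat library of these 5 genes reached the lowest vehicle library. Leaving out 1 library at a time gave 15 to 19 members higher and 7 to 8 lower with Valemetostat. Summed neuron markers were 26.7 to 31.8 CPM with Valemetostat and 11.7 to 15.2 CPM with vehicle, and endothelial markers 79.1 to 96.6 CPM with Valemetostat and 27.3 to 29.9 CPM with vehicle. Macrophage and lymphocyte markers were 74.8 to 105 CPM with Valemetostat and 41.9 to 57.3 CPM with vehicle. Of the tested markers, 6 of 9, 5 of 11 and 7 of 9 were higher with Valemetostat, and 0, 2 and 0 were lower, for the lists in that order. Their part in these results was not tested.

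MAK683 against vehicle gave 14 members higher and 7 lower, 23.3% and 11.7% of the 60, against 10.4% and 5.17% of all tested genes. The median log2 fold change was 0.49 over the members and -0.01 over all tested genes. Among the 36 members passing the filter on the vehicle libraries alone, 19.4% were higher and 19.4% lower, with a median of 0.06. Of all such genes, 7.53% were higher and 6.63% lower, with a median of -0.06. The other members passed the filter through the compound groups. KCND3 had 2.78, 0.929 and 1.44 CPM with MAK683, against 0.226, 0.21 and 0.466 CPM with vehicle (log2 fold change 2.48 ± 0.46 SE, edgeR adjusted p = 0.000598). KCNK12 was at 5.13, 4.21 and 3.44 CPM with MAK683 (1.97 ± 0.43 SE, edgeR adjusted p = 0.00276) and KCNG1 at 54.7, 58.5 and 48.3 CPM (1.18 ± 0.21 SE, edgeR adjusted p = 0.000332). These 3 genes kept their groups apart. Of them, KCND3 passed the filter through the compound groups alone. KCNJ5, a G-protein-gated rectifier of the atrium and adrenal cortex, had 1.79, 1.52 and 1.89 CPM with MAK683, against 0.679, 0.504 and 0.932 CPM with vehicle (log2 fold change 1.29 ± 0.32 SE, edgeR adjusted p = 0.0071). KCNK15 had 19 counts with MAK683 and none with vehicle, at least 7.81-fold higher (edgeR adjusted p = 0.00994).

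KCNN1, KCNK13, KCNH5 and KCNIP3 were also higher with MAK683, by log2 fold changes of 1.74, 1.38, 1.34 and 0.98. Their edgeR adjusted p was 0.009, 0.0162, 0.0193 and 0.00854. KCNK5 and KCNF1 were called higher with MAK683 too, by log2 fold changes of 2.65 and 2.61, and kept these calls under all 15 alternatives. Both passed the filter through the compound groups alone. Among the members lowered were KCNK7, at 0.742, 1.81 and 1.28 CPM with MAK683 (log2 fold change -1.33 ± 0.29 SE, edgeR adjusted p = 0.00285), KCNJ11 (-1.06 ± 0.28 SE, edgeR adjusted p = 0.0115), KCNAB2 (-0.88 ± 0.20 SE, edgeR adjusted p = 0.00379), KCNMB4 (-0.88 ± 0.15 SE, edgeR adjusted p = 0.000316) and KCNJ2 (-0.80 ± 0.26 SE, edgeR adjusted p = 0.0416). KCNMB4 had 20.3, 22.7 and 18.4 CPM with MAK683, against 38.3, 37.2 and 37.2 CPM with vehicle. KCNN2, singled out after its values were seen, had 0.309, 0.245 and 0.444 CPM with MAK683 (log2 fold change -1.48 ± 0.38 SE, edgeR adjusted p = 0.0102), and its call was lost without MAK683 library 2 (edgeR adjusted p = 0.0603). KCNK3 had 7.61, 10.9 and 12.5 CPM with MAK683, below each vehicle library, and was not called (log2 fold change -0.86 ± 0.34 SE, edgeR adjusted p = 0.0983).

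Several MAK683 calls were lost when 1 library was left out. The edgeR adjusted p of KCNH5 was 0.0799 and 0.0968 without vehicle library 1 or 3, and 0.0563 and 0.0707 without MAK683 library 1 or 2. KCNK13 gave 0.0754 without vehicle library 3 and 0.058 without MAK683 library 1, KCNJ5 0.0544 without vehicle library 2, and KCNN1 0.072 without MAK683 library 2. KCNJ11 gave 0.0572 without vehicle library 3 and 0.0838 without MAK683 library 3. KCNJ2 lost its call without vehicle library 2 (0.0916) or 3 (0.165) and without MAK683 library 2 (0.18) or 3 (0.0859). With no filter on low counts KCNIP3 gave 0.0878. The direction of each was kept. Neuron markers summed to 19.8 to 23.7 CPM and endothelial markers to 78 to 78.2 CPM with MAK683, against 11.7 to 15.2 and 27.3 to 29.9 CPM with vehicle. Macrophage and lymphocyte markers summed to 64.3 to 66.6 CPM with MAK683 and 41.9 to 57.3 CPM with vehicle. With MAK683, 4 of 9, 4 of 11 and 4 of 9 markers were higher and 0, 1 and 0 lower, for the lists in that order, and their part in the MAK683 results was not tested.

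PF-06821497 against vehicle gave 3 members higher and 4 lower, 5% and 6.67% of the 60, against 5.96% and 3.59% of all tested genes; these shares are near the background. Other scaling split the calls otherwise: the higher share was 42.9% here, 50% with RLE factors and 55.6% with upper-quartile factors. Libraries are numbered by their titles, and the deposited file names number the 3 PF-06821497 libraries otherwise: libraries 1, 2 and 3 here carry 3, 1 and 2 there, and the resubmission mark stands on library 1 in the titles and on library 2 in the file names. The count higher was 1 without vehicle library 1 or PF-06821497 library 1 and 5 without PF-06821497 library 2. It was 6 without the libraries marked as resubmitted in their file names. KCNH5 had 1.92, 1.25 and 1.05 CPM with PF-06821497, against 0.453, 0.797 and 0.373 CPM with vehicle (log2 fold change 1.35 ± 0.38 SE, edgeR adjusted p = 0.026). Its call was lost without vehicle library 1, vehicle library 3 or PF-06821497 library 1 (edgeR adjusted p = 0.0978, 0.138 and 0.105), and with only the groups compared (0.0555). KCND3 was at 1.3, 0.945 and 0.571 CPM with PF-06821497 (1.62 ± 0.48 SE, edgeR adjusted p = 0.0347). That call was lost without vehicle library 1 or 2 (edgeR adjusted p = 0.121 and 0.142) and without PF-06821497 library 1 or 2 (0.115 and 0.0684). It was also lost with limma-voom, without the libraries marked as resubmitted in titles or in file names, and with only the groups compared. KCNC2 had 22 counts with PF-06821497 and 1 with vehicle, a ratio of 22.7 with an interval of 3.67 to 937. The KCNC2 call was lost with DESeq2. Neuron markers summed to 16.8 to 25 CPM with PF-06821497 and 11.7 to 15.2 CPM with vehicle (4 of 9 higher, 0 lower), endothelial markers to 39.5 to 72.1 CPM with PF-06821497 and 27.3 to 29.9 CPM with vehicle (2 of 11 higher, 1 lower). Macrophage and lymphocyte markers were 58.8 to 76.4 CPM with PF-06821497 and 41.9 to 57.3 CPM with vehicle (2 of 9 higher, 0 lower). The part of these markers in the PF-06821497 results was not tested.

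The 4 members lowered by PF-06821497 were KCNJ11, KCNK3, KCNAB2 and KCNMB4. KCNJ11 had 0.727, 0.86 and 0.878 CPM with PF-06821497, against 2.04, 2.6 and 2.79 CPM with vehicle (log2 fold change -1.58 ± 0.28 SE, edgeR adjusted p = 0.00106). KCNAB2 was at 3.17, 4.86 and 3.78 CPM (-0.94 ± 0.20 SE, edgeR adjusted p = 0.00387) and KCNMB4 at 20.5, 24.3 and 25 CPM (-0.69 ± 0.15 SE, edgeR adjusted p = 0.00519). KCNK3 was at 7.01, 8.6 and 7.55 CPM with PF-06821497 (-1.28 ± 0.34 SE, edgeR adjusted p = 0.0216). The KCNK3 call was lost without vehicle library 2 or 3 (edgeR adjusted p = 0.0799 and 0.0555) and without PF-06821497 library 1 or 3 (0.0737 and 0.0885). None of the 4 overlapped with vehicle.

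Tazemetostat against vehicle gave 0 members higher and 0 lower by edgeR, as it gave 0% of all tested genes in each direction. At an unadjusted p under 0.05, 1 member was higher and 2 were lower, beside 2.24% and 0.71% of all tested genes, while DESeq2 and limma-voom each called 0 members. Over all tested genes DESeq2 called 0.0228% higher and 0% lower, and limma-voom 0% in each direction. KCNK5 had 0.24, 0.322 and 0.173 CPM with tazemetostat (log2 fold change 0.71 with a 95% interval of -0.55 to 1.97), KCNG1 29.1, 26 and 31.6 CPM (0.28 with a 95% interval of -0.14 to 0.71) and KCNMB4 31.2, 33.1 and 37.6 CPM (-0.14 with a 95% interval of -0.46 to 0.17). The 3 genes past the unadjusted threshold, KCNC2, KCNAB2 and KCNJ11, are named after their values were seen; KCNAB2 had 4.75, 5.52 and 5.87 CPM with tazemetostat and 7.47, 8.85 and 6.38 CPM with vehicle, and KCNJ11 1.6, 1.53 and 1.68 CPM with tazemetostat and 2.04, 2.6 and 2.79 CPM with vehicle.

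CPI-1205 against vehicle likewise gave 0 members in each direction by edgeR, and 0% of all tested genes. At an unadjusted p under 0.05, 2 members were higher (KCNC2 and KCNRG) and 2 lower (KCNC4 and KCNK1), named after their values were seen, beside 6.04% and 6.32% of all tested genes. DESeq2 and limma-voom each called 0 members. Over all tested genes DESeq2 called 0.0228% higher and 0.187% lower, and limma-voom 0% in each direction. KCNK5 had 0.0908, 0.454 and 0.179 CPM with CPI-1205 (log2 fold change 0.71 with a 95% interval of -0.57 to 1.98), KCNG1 28.4, 22.4 and 19.3 CPM (-0.03 with a 95% interval of -0.46 to 0.40) and KCNMB4 39.6, 37.3 and 35.3 CPM (-0.01 with a 95% interval of -0.32 to 0.30). KCNK3 was uneven in this group, at 25.8, 16.5 and 6.27 CPM. A missing call does not show that tazemetostat and CPI-1205 leave these genes at vehicle levels; the intervals give the changes that these libraries allow.

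The 6 compounds were given at the same dose and harvested at the same time, and their readouts are set side by side at that dose. Drug exposure and inhibition of the enzyme are not among the values used here, so differences between compounds are not measures of potency. An edgeR test of any difference among the 6 compounds called 32 of the 60 members, and 7100 of the 21958 tested genes, which is 32.3% of those genes. The 60 include members that passed the filter through the compound groups alone. Counts of members in the comparisons below are out of the same 60. CPI-0209 was then compared with each of the other 5 compounds, which share the CPI-0209 libraries. Structures are not compared here.

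CPI-0209 against Valemetostat gave 0 members in each direction by edgeR, as for 0% of all tested genes. At an unadjusted p under 0.05, 7 members were higher and 4 lower, beside 8.9% and 3.43% of all tested genes. DESeq2 called 1 member higher and 0 lower, beside 1.53% and 0.205% of all tested genes, and limma-voom called 0 members, beside 0.273% and 0.00455%. The intervals leave room for differences: KCNJ12 gave 1.67 with a 95% interval of 0.86 to 2.48 (edgeR adjusted p = 0.085), with 1.95, 4.83 and 5.06 CPM with CPI-0209 and 0.84, 0.938 and 1.93 CPM with Valemetostat, which did not overlap. KCNJ12 was not called and is named here after its values were seen. The intervals are not adjusted for the number of genes tested. KCNMB4 gave -0.43 with a 95% interval of -0.76 to -0.10, KCNG1 0.08 with a 95% interval of -0.34 to 0.50 and KCNK3 -0.35 with a 95% interval of -1.17 to 0.46. For KCNG1 the interval excludes a difference beyond a log2 value of 0.50 in favour of CPI-0209.

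Against MAK683, CPI-0209 gave 3 members higher and 2 lower of the 60, beside 5.05% of all tested genes higher and 4.03% lower. These counts are near the background. The count higher was 5 without CPI-0209 library 1 and 1 without MAK683 library 3, and the count lower was 1 without CPI-0209 library 1 or 2 or MAK683 library 2 or 3. KCNJ12 had 1.95, 4.83 and 5.06 CPM with CPI-0209 and 0.495, 0.44 and 0.721 CPM with MAK683 (log2 fold change 2.81 ± 0.43 SE, edgeR adjusted p = 0.000685). KCNK15 gave 2.26 ± 0.64 SE, edgeR adjusted p = 0.0319 and KCNK5 1.64 ± 0.38 SE, edgeR adjusted p = 0.0101 on the log2 scale. KCNK3 was lower, at 3.68, 2.76 and 5.16 CPM with CPI-0209 and 7.61, 10.9 and 12.5 CPM with MAK683 (-1.45 ± 0.38 SE, edgeR adjusted p = 0.0208), and KCNMB4 gave -0.79 ± 0.16 SE, edgeR adjusted p = 0.0042. The groups did not overlap for these 5 genes. KCNK15 lost its call without any 1 of CPI-0209 libraries 2 and 3 or MAK683 libraries 1, 2 and 3 (edgeR adjusted p = 0.207, 0.0697, 0.0599, 0.101 and 0.109), and with the muscle term (0.0698). KCNK3 lost it without CPI-0209 library 1 or 2 (0.0566 and 0.106) or MAK683 library 2 or 3 (0.0584 and 0.105), with limma-voom (0.0504), and KCNK5 without MAK683 library 3 (0.0603).

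Against tazemetostat, CPI-0209 gave 23 members higher and 8 lower, beside 20.3% and 16.7% of all tested genes. KCNF1 had 1.28, 2.64 and 1.62 CPM with CPI-0209 and 0.0799, 0.0403 and 0.0863 CPM with tazemetostat (log2 fold change 4.65 ± 0.60 SE, edgeR adjusted p = 4.18e-06). KCNK5 gave 3.58 ± 0.44 SE, edgeR adjusted p = 2e-06 and KCNJ12 3.44 ± 0.44 SE, edgeR adjusted p = 3.81e-06. For KCNK15, with 78 counts with CPI-0209 and 2 with tazemetostat, the edgeR adjusted p was 5.79e-05. The lower members were led by KCNK7 (-1.81 ± 0.33 SE, edgeR adjusted p = 0.000203), KCNK3 (-1.74 ± 0.38 SE, edgeR adjusted p = 0.00115) and KCNMB4 (-1.52 ± 0.16 SE, edgeR adjusted p = 3.17e-07), with KCNJ2 at -1.10 ± 0.28 SE, edgeR adjusted p = 0.00347. KCNJ11 gave -0.85 ± 0.30 SE, edgeR adjusted p = 0.032, a call lost without CPI-0209 library 2 or 3 or any 1 tazemetostat library (edgeR adjusted p = 0.101, 0.0893, 0.0759, 0.051 and 0.0652). It was also lost with DESeq2, limma-voom, upper-quartile scaling, no filter on low counts, a filter at 1 CPM in 3 libraries and the muscle term (adjusted p = 0.0736, 0.051, 0.0722, 0.0655, 0.0517 and 0.0797).

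Against PF-06821497, CPI-0209 gave 17 members higher and 5 lower, beside 13.9% and 8.66% of all tested genes. Leaving out CPI-0209 library 3 gave 11 higher. KCNK15 had 78 counts with CPI-0209 and 3 with PF-06821497 (edgeR adjusted p = 0.000284). KCNF1 had 1.28, 2.64 and 1.62 CPM with CPI-0209 and 0.0519, 0.129 and 0.132 CPM with PF-06821497 (log2 fold change 4.05 ± 0.57 SE, edgeR adjusted p = 4.01e-05). KCNJ12 gave 3.64 ± 0.46 SE, edgeR adjusted p = 1.27e-05 and KCNK5 2.56 ± 0.40 SE, edgeR adjusted p = 0.000113. KCNK7 fell by 1.72 on the log2 scale, KCNMB4 by 0.97 and KCNJ15 by 0.68, with edgeR adjusted p of 0.000766, 0.000158 and 0.000261. KCNN4 gave -0.61 ± 0.17 SE, edgeR adjusted p = 0.0137, lost without CPI-0209 library 3 or PF-06821497 library 3 (0.0601 and 0.0747), with the muscle term (0.0628) and with only the groups compared (0.0509).

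Against CPI-1205, CPI-0209 gave 23 members higher and 9 lower, beside 19.9% and 15.3% of all tested genes. Without libraries marked as resubmitted in their titles, which include CPI-1205 libraries 2 and 3, 14 were higher. KCNF1 had 1.28, 2.64 and 1.62 CPM with CPI-0209 and 0, 0.0825 and 0.0895 CPM with CPI-1205 (log2 fold change 4.86 ± 0.62 SE, edgeR adjusted p = 3.54e-06), and KCNJ12 gave 3.64 ± 0.45 SE, edgeR adjusted p = 2.49e-06. KCNK5 gave 3.58 ± 0.44 SE, edgeR adjusted p = 2.13e-06, and 4.44 without CPI-1205 library 2. KCNK15 had 78 counts with CPI-0209 and 1 with CPI-1205 (edgeR adjusted p = 4.46e-05). Among the lower members, KCNK7 gave -2.26 ± 0.33 SE, edgeR adjusted p = 1.45e-05, KCNK3 -2.10 ± 0.38 SE, edgeR adjusted p = 2e-04, KCNMB4 -1.66 ± 0.16 SE, edgeR adjusted p = 1.02e-07 and KCNJ2 -1.19 ± 0.28 SE, edgeR adjusted p = 0.00188. KCNJ11 gave -1.16 ± 0.30 SE, edgeR adjusted p = 0.00458, lost with the muscle term (-0.98, edgeR adjusted p = 0.0535) and with only the groups compared (-1.11, edgeR adjusted p = 0.0616). Without the libraries marked as resubmitted in titles, the log2 fold change was -1.78 for KCNJ11, -2.83 for KCNK3, 4.92 for KCNK5 and 2.90 for KCNJ12. That fit holds 1 CPI-1205 library, which is assumed to vary like the other groups. KCNK1, which was not called against vehicle, was higher, at 91.2, 81.6 and 97.2 CPM with CPI-0209 and 62.5, 70.6 and 66.2 CPM with CPI-1205 (log2 fold change 0.44 ± 0.11 SE, edgeR adjusted p = 0.00394); it is named after its values were seen.

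The 36 members that were not tested had few counts. KCNK16, KCNK18 and KCNA6 were at 0 in every library; all exon bases of KCNA6 are shared with GALNT8, so reads there cannot be assigned to one of them by position. In all, 9 members were at 0 in the 3 vehicle libraries. Besides KCNK15, 2 of these reached 10 counts over a compound group: KCNH4 had 10 counts with CPI-0209, at least 4.9-fold higher, and KCNA10 had 13 with PF-06821497, at least 4.47-fold higher. Neither was tested.

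Among untested members with 1 to 3 vehicle counts, 3 KCNQ genes are given here, chosen after their values were seen. KCNQ3, a subunit of the neuronal M current, had 24 counts with CPI-0209 and 1 with vehicle, a ratio of 35.3 with a counting interval of 5.76 to 1450. KCNQ5 had 19 counts with CPI-0209 and 2 with vehicle, a ratio of 14 (3.37 to 124), and KCNQ1, the channel of cardiac and epithelial potassium secretion, 17 with CPI-0209 and 2 with vehicle, a ratio of 12.5 (2.97 to 112). KCNQ5 had 3, 0 and 16 counts in the CPI-0209 libraries. These ratios compare reads of the libraries summed by group, and no test of the condition was made for genes under the filter.

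Promoter sequences were taken from RefSeq (GRCh38.p14) as the 250 bases before the annotated start. Of the members, 72 matched by symbol and 61 had a start within 1000 bases of the gene's start in the count tables. Polycomb repressive complex 2 is known to sit at promoters rich in CG dinucleotides, so CG was counted; CG reads the same on both strands. The printed windows are those of 3 members that were higher with CPI-0209 (KCNK5, KCNF1 and KCND3) and of 1 that was lower (KCNK3), shown 5′ to 3′ in gene direction with each CG in capitals. The KCNK3 window is cut at 218 bases, where the gene of the count tables begins. These windows are examples that no rule picked, and they do not stand for the other members.
KCNK5, chr6:39229476-39229725, minus strand: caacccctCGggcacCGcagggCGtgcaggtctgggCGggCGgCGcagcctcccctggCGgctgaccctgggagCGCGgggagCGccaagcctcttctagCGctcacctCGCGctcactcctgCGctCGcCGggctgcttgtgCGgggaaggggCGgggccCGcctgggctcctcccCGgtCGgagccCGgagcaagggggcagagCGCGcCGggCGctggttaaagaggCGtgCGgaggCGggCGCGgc
KCNF1, chr2:10911684-10911933, plus strand: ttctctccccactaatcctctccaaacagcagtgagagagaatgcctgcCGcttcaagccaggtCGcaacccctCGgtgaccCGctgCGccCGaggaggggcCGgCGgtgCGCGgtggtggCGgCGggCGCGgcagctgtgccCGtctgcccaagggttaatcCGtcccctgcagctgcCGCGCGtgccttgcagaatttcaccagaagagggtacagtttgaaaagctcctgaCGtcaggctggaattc
KCND3, chr1:111989175-111989424, minus strand: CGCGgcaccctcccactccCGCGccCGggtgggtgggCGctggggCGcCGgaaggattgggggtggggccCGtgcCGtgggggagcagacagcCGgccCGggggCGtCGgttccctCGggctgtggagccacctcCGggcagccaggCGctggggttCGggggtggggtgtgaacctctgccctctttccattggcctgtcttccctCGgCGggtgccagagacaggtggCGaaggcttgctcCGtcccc
KCNK3, chr2:26692472-26692689, plus strand: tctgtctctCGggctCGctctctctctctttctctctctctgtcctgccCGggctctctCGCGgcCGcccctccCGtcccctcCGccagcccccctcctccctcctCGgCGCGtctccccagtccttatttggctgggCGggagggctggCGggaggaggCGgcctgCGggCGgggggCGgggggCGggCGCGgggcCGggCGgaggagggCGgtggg

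The KCNK5 window holds 31 CG, KCND3 22, KCNF1 20 and the cut KCNK3 window 23, or 27 before cutting. A matched window was found for 15 of the 26 members called higher with CPI-0209 and 5 of the 10 called lower. KCNK15 and KCNJ12 were among those without one. The number of CG ran from 3 to 46 among the higher members and from 4 to 32 among the lower. Over members with a matched window, the median number of CG was 22 for the 15 called higher with CPI-0209, 6 for the 5 called lower, 12 for the 14 not called and 15 for the 27 not tested, against 11 over all 35116 promoters in the table. At least 20 CG were found in 60% of the windows of higher members, 40.0% of lower, 21.4% of those not called, 37.0% of those not tested and 32.4% of all promoters. The letters TATAAA, read on either strand, stood in 1 of the 15 windows of higher members (6.7%) and 0 of the 5 of lower. They stood in 21.4% of the windows of members not called, 11.1% of those not tested and 10.7% of all promoters. These are descriptions of sequence, with no test, and they do not show binding.

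Other ion transport genes, from lists without KCN names, were counted in the same way for CPI-0209 against vehicle, beside 22.3% of all tested genes higher and 18.8% lower. Genes of these lists could also pass the filter through the compound groups alone. Of all tested genes that did so, 47.5% were higher with CPI-0209, so the list counts and medians are not support for a rise. The genes named from each list are those with its smallest p in this same comparison. Voltage-gated calcium channels had 14 of 21 tested genes higher and 1 lower, with a median log2 fold change of 2.19. CACNG8, an auxiliary gamma subunit, had 6.44 ± 2.96 CPM with CPI-0209 and 0.118 ± 0.0223 CPM with vehicle (SD, n = 3; log2 fold change 5.68 ± 0.55 SE, edgeR adjusted p = 6.8e-08). CACNA1A, the pore of the P/Q-type channel, had 21 ± 5.35 CPM with CPI-0209 and 4.94 ± 0.386 CPM with vehicle (2.08 ± 0.20 SE, edgeR adjusted p = 7.56e-08). CACNA2D1 and CACNG7 gave log2 fold changes of 3.51 ± 0.48 SE, edgeR adjusted p = 6.39e-06 and 4.15 ± 0.68 SE, edgeR adjusted p = 4.91e-05.

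Sodium channels had 10 of 17 higher and 2 lower (median 1.42). SCN3A had 2.28 ± 0.845 CPM with CPI-0209 and 0.298 ± 0.0732 CPM with vehicle (log2 fold change 2.89 ± 0.38 SE, edgeR adjusted p = 3.62e-06), and SCNN1G, a subunit of the epithelial sodium channel, 9.04 ± 1.61 CPM with CPI-0209 and 1.16 ± 0.299 CPM with vehicle (2.94 ± 0.43 SE, edgeR adjusted p = 1.34e-05). NALCN, the sodium leak channel, was lower, with 1.53 ± 0.592 CPM with CPI-0209 and 6.23 ± 1.2 CPM with vehicle (-2.07 ± 0.28 SE, edgeR adjusted p = 5.25e-06). Subunits that partner potassium channels and related cation channels had 5 of 11 higher and 1 lower (median 0.52). LRRC55 and LRRC38, gamma subunits of the large-conductance channel, had 20 ± 3.48 CPM with CPI-0209 and 0.693 ± 0.197 CPM with vehicle (4.83 ± 0.49 SE, edgeR adjusted p = 2.23e-07) and 5.8 ± 2.1 CPM with CPI-0209 and 0.238 ± 0.0696 CPM with vehicle (4.58 ± 0.45 SE, edgeR adjusted p = 8.49e-08). DPP6, a partner of KCND channels, gave 3.36 ± 0.70 SE, edgeR adjusted p = 0.000574, and CNGB1, a subunit of cyclic nucleotide-gated channels, 1.44 ± 0.32 SE, edgeR adjusted p = 0.00118. SCN2B, a beta subunit of sodium channels, gave 2.37 ± 0.36 SE, edgeR adjusted p = 2.18e-05.

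Potassium pumps and cotransporters had 10 of 21 higher and 5 lower (median 0.50). SLC12A7, a potassium-chloride cotransporter, had 359 ± 82.8 CPM with CPI-0209 and 28.9 ± 1.09 CPM with vehicle (3.64 ± 0.28 SE, edgeR adjusted p = 9.09e-09). ATP1B3, a beta subunit of the sodium pump, was lower, with 181 ± 18.7 CPM with CPI-0209 and 365 ± 12.9 CPM with vehicle (-1.01 ± 0.12 SE, edgeR adjusted p = 1.63e-06). FXYD6, a pump regulator, gave 3.23 ± 0.48 SE, edgeR adjusted p = 1.85e-05. Chloride channels had 4 of 21 higher and 7 lower (median -0.10): CFTR had 9.74 ± 0.391 CPM with CPI-0209 and 0.263 ± 0.119 CPM with vehicle (5.16 ± 0.76 SE, edgeR adjusted p = 2.92e-05) and ANO1 87.9 ± 19.9 CPM with CPI-0209 and 196 ± 20.8 CPM with vehicle (-1.16 ± 0.16 SE, edgeR adjusted p = 5.48e-06). CLCN4 gave 2.27 ± 0.30 SE, edgeR adjusted p = 3.6e-06 and ANO6 -1.22 ± 0.18 SE, edgeR adjusted p = 1.92e-05. With Valemetostat, 7 calcium channel genes were higher and 1 lower, 8 and 2 sodium channel genes, 4 and 0 partner genes, 8 and 5 pump genes, and 2 and 5 chloride channel genes, beside 15% and 12.2% of all tested genes. With MAK683 the counts were 6 higher and 0 lower, 6 and 1, 2 and 0, 6 and 2, and 2 and 1 for the lists in that order, beside 10.4% and 5.17% of all tested genes. PF-06821497 gave 4 and 0, 1 and 1, 1 and 0, 3 and 2, and 2 and 1, beside 5.96% and 3.59%. These lists were not tested against each other or against the KCN members.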

How the data were processed

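RNA-seq counts were analysed for 21 tumour libraries in 7 groups of 3. The deposited values are whole-number counts per gene, and STAR 2.7.3a, RSEM 1.3.1 and hg38 are named, without roles, in the submitters' processing notes. Per the labels' protocols, total RNA went into TruSeq libraries. For the strand setting of the counting, and for the treatment of mouse reads, the sources used here give nothing. The deposited tables also give each gene's exon length, used for levels per kilobase.

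Gene IDs were matched to GENCODE 29 symbols (56898 of 57500 genes). Of the 96 members, 82 had the same start and end there. The members and lists were chosen with earlier results of these data known. Counts were filtered with filterByExpr, which left 21958 genes and 99.6% to 99.9% of counts. They were scaled by TMM (0.946 to 1.08) and fitted with edgeR 4.0.16 in R 4.3.3 (robust quasi-likelihood, 14 residual degrees of freedom, two-sided). The method was tested on simulated data. Precision is set by totals of 9725690 to 25771778 counts and 3 libraries a group.

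Named members were, for each compound against vehicle, the 10 largest rises and 5 largest falls among called members with at least 1 CPM in the higher group and no overlap. For CPI-0209 against each other compound they were the 5 largest each way. Other members are given as the rest of their family. Alternatives were other filters, scalings and tools (DESeq2 1.42.0, limma 3.58.1), fits of fewer groups or libraries, a replicate block and a skeletal muscle covariate. The results of some genes are not reported here.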

Additional observations from a re-analysis of the deposited data

How the results depend on the processing

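No named member reversed direction under any alternative tried, while the balance of higher and lower calls did for PF-06821497 against vehicle, with 4 lower in the reported fit. Of the alternatives for named members, 1217 kept the call and 63 lost it. PF-06821497 against vehicle had 3 members higher, and the count was 6 with no filter on low counts, 5 with upper-quartile scaling, 1 without libraries marked resubmitted in their titles, 6 without those marked in their file names and 0 with only the groups compared; leaving out 1 library gave 1 to 5. CPI-0209 against Valemetostat had 0 higher, against 6 with no filter, 1 with DESeq2 and 0 to 1 leaving out 1 library. CPI-0209 against MAK683 had 3 higher, against 7 with no filter and 1 to 5 leaving out 1 library, and 2 lower, against 1 with limma-voom, 5 with the skeletal muscle covariate and 1 to 3 leaving out 1 library. CPI-0209 against tazemetostat had 8 lower, against 5 with at least 1 CPM in at least 3 libraries. CPI-0209 against PF-06821497 had 17 higher, against 11 to 18 leaving out 1 library. CPI-0209 against CPI-1205 had 23 higher, against 14 and 15 without libraries marked resubmitted in titles and in file names, and 9 lower, against 5 with the muscle covariate. The cause of these changes was not tested.

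Same-numbered libraries did not deviate together throughout any comparison: r was -0.203 to 0.219 against vehicle and -0.313 to 0.326 between compounds. It was not above 0.1 for every number in any comparison. Deviations from a mean of 3 libraries cannot exclude a pairing, and none was assumed in the main fit. With the replicate block, CPI-0209 against vehicle gave 25 members higher and 10 lower. The KCNJ2 call for MAK683 was lost with the block (-0.80, edgeR adjusted p = 0.0615), as were the KCNJ10 calls for CPI-0209 and Valemetostat. Calls tested and kept under all alternatives numbered 20 of 36 for CPI-0209, 17 of 28 for Valemetostat, 9 of 21 for MAK683 and 3 of 7 for PF-06821497 against vehicle; another 6, 4, 1 and 0 were kept wherever the gene was tested. Depth limits the 36 members below the filter, for which a missing difference is not detectable at this depth.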
